A study of Arabidopsis thaliana with 12 samples.

Results

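Young rosette leaves of the Arabidopsis cuticle mutants fdh and bdg were compared directly with each other, without wild type in the difference. Of the 12 arrays of the series, the 6 compared were those titled as fdh leaves (3 arrays) and bdg leaves (3 arrays), and 22746 of the 22810 probe sets of the Affymetrix ATH1 array were tested, the Affymetrix control probe sets being left out. The fdh plants carried the allele fdh-3940, an insertion in the first exon of FIDDLEHEAD (FDH), and the bdg plants carried bdg-2, a deletion in the first exon of BODYGUARD (BDG). Both were in the Col-0 background, as were the wild type and the lcr plants (lcr-3P77) on the remaining 6 arrays, and each mutant was represented by 1 allele. Plants had grown for 5.5 weeks on soil with 8 h of light and 16 h of darkness, and each sample pooled young leaves of 15 plants, so an array reports the mean of a pool and not a single plant. Every difference below is fdh minus bdg on the log2 scale of the authors' background-corrected and normalised array values.

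The cuticle is the layer of cutin polyester and waxes that covers the outer wall of the shoot epidermis and limits water loss. FDH encodes a putative beta-ketoacyl-CoA synthase, an enzyme class that elongates very-long-chain fatty acids, and BDG encodes an epidermal protein of the alpha/beta-hydrolase fold family that is needed for a normal cuticle. Loss of either gene is known for fused organs and a leaky cuticle. A direct comparison of the mutants asks in which genes the leaves with one defect differ from the leaves with the other.

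The array medians lay between 4.56 and 4.704, and 49.5% of the probe sets in bdg and 49.1% in fdh had means below the lowest of these medians, a level at which a value was not shown to stand above background. Among the called genes with a symbol described below, this held for the bdg means of QQS, WES1, HIS1-3, GRX480, APS4 and FMO, the fdh mean of AUR1 and both means of PUB24 and SUFE2, and it also held for both means of At2g27310. Replicates 1 and 2 of fdh were the most alike pair of arrays of one genotype (Pearson's r = 0.996 over the probe sets), whereas fdh replicate 3 correlated with them at 0.982 and 0.984 and with lcr replicate 3 at 0.991. The bdg arrays correlated with each other at 0.974 to 0.986. Replicate 3 of bdg was closer to lcr replicate 3 (0.994) and wild type replicate 3 (0.990) than to either other bdg array. On bdg replicate 1 the GAPDH control probe sets differed by 3.172 between their 3′ and 5′ ends, against 1.32 to 1.78 on the other 5 arrays, a measure that rises as RNA is degraded or copied incompletely. The mesophyll marker RCA, Rubisco activase, was high on all 6 arrays (13.86 to 14.43), and the root hair expansins EXPA7 and EXPA18 were at 1.89 to 1.94 on all 6. FDH, BDG and LCR were not paired with a probe set in the annotation used, so the mutated genes could not serve as a check of the labels. In pooled leaves, fewer cells of a type and less RNA per cell cannot be told apart.

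Leaves of fdh and bdg differed in 173 probe sets (0.761% of those tested) by limma at an adjusted p under 0.05. Of these 114 were higher in fdh (0.501%) and 59 lower (0.259%). Called rises were larger than called falls: the median difference was 1.67 among the former and -1.004 among the latter, against 0.00195 over all probe sets. The rises also had the larger median SE (0.243 against 0.149), and a larger SE requires a larger difference to pass. In every one of the 173 the 3 fdh arrays and the 3 bdg arrays did not overlap, which was also true of 3950 probe sets (17.4%) overall. At an unadjusted p under 0.05 there were 2931 (12.9%). Centring each array on its median changed the split to 114 higher and 117 lower, and treating equally numbered samples as blocks raised the number to 336, with 221 higher and 115 lower.

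**Figure D1:**
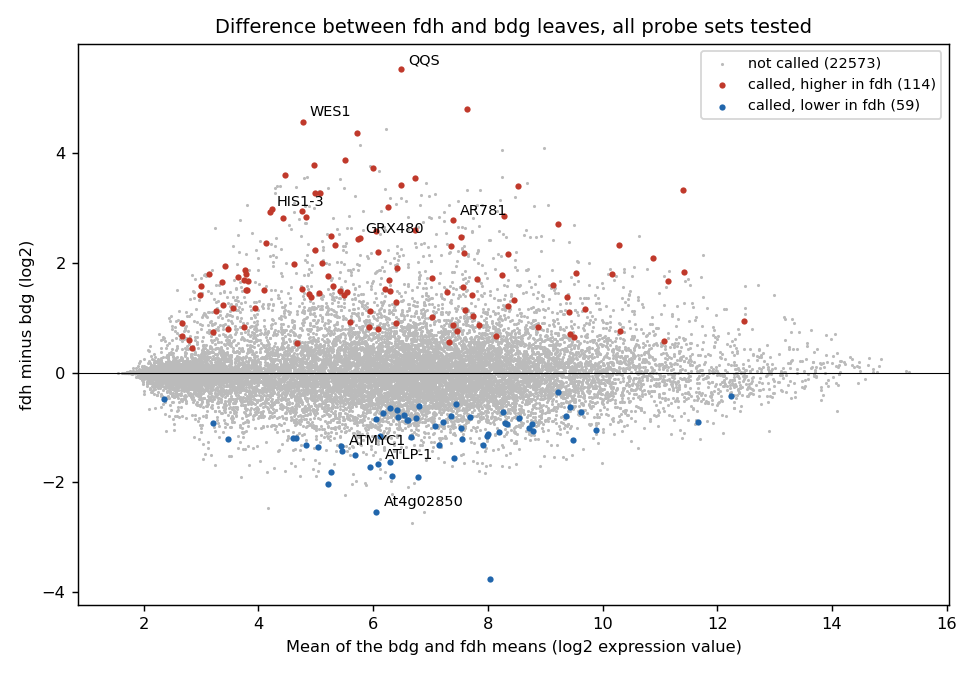
Each point is 1 probe set, with the mean log2 value over the 6 arrays on the x axis and the fdh minus bdg difference in log2 units on the y axis, and the probe sets called by limma are coloured. The 114 called rises reach 5.53 and the 59 called falls reach -3.77.

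Of the 173 called probe sets, 97 were paired with a single gene, or 0.718% of the 13513 such probe sets, with 64 higher (0.474%) and 33 lower (0.244%). Only 19 of the called probe sets had a gene symbol, 13 higher and 6 lower. Other single-gene calls are named by their locus, and not every call is described below. The most stable calls were few. When each of the 12 arrays was left out in turn, 14 of the 173 were called every time, 7 of them paired with 1 gene. These 7 were QQS, At1g57630, At3g17020, At3g47550 and At2g27310, all higher in fdh, and ATMYC1 and UPP, both lower. These fits still took part of the spread from wild type and lcr. With only the 6 fdh and bdg arrays in the limma fit, 15 of the 173 passed. QQS, At1g57630 and At2g27310 were among them (adjusted p = 0.0212, 0.0336 and 0.0426). At3g17020, At3g47550 and UPP were not (0.0884, 0.0969 and 0.0994). Some calls outside these 7 also passed with the 6 arrays, among them WES1, GAMMA-VPE and At1g13470 (0.0336, 0.0275 and 0.0173).

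QQS (At3g30720, the qua-quine starch gene) gave the largest difference of any probe set. It is an Arabidopsis gene without recognised relatives in other species whose silencing raises leaf starch. Its log2 values were 3.95, 3.63 and 3.58 in bdg and 9.31, 8.78 and 9.67 in fdh. The groups were far apart and fdh replicate 3 was the highest array. The difference was 5.53 (SE 0.351, 46.2-fold, limma adjusted p = 8.6e-04), and with any 1 array left out the adjusted p did not exceed 0.00882. The bdg mean of 3.72 lay below the lowest array median, so the fold rests on a bdg level that was not shown to exceed background. Wild type and lcr lay between, at 5.19 ± 0.27 and 5.25 ± 0.713 (SD, n = 3 each), fdh also exceeded lcr (4.004, adjusted p = 0.00587), and bdg was below wild type by 1.47 without passing the test (adjusted p = 0.381). Of the other 5 probe sets of the starch list none passed, and the median of the 6 was 0.0023.

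WES1 (At4g27260, also GH3.5), an amido synthetase that conjugates auxin and salicylic acid to amino acids, was near the bottom of the scale in bdg and well expressed in fdh. It read 2.43, 2.42 and 2.59 in bdg against 7.61, 7.01 and 6.56 in fdh, with no overlap. The difference was 4.58 (SE 0.555, adjusted p = 0.0166). The bdg mean lay below the lowest array median, so the same limit holds for its 23.9-fold difference. The call ended without fdh replicate 1 (adjusted p = 0.073) and without each bdg array (0.0514 to 0.0651). In lcr the level was intermediate (4.61 ± 1.33, SD, n = 3). WES1 was the only 1 of the 6 auxin probe sets that passed. All 6 had a positive difference (0.0051 to 4.58, median 1.05), as had 7296 of all 13513 single-gene probe sets.

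The auxin genes IAA29 and GH3.3, chosen after their values were seen, followed fdh replicates 1 and 2 more than replicate 3. IAA29, a repressor of the auxin response, read 2.38, 2.098 and 3.37 in bdg and 6.45, 6.57 and 5.06 in fdh (difference 3.41, adjusted p = 0.126). The GH3 synthetase gene GH3.3 read 4.27, 4.82 and 6.47 against 7.61, 7.57 and 6.50 (2.04, adjusted p = 0.222). In both genes the third bdg array was the highest of its group and the third fdh array the lowest of its group. Their families did not rise as a whole. The 7 auxin-responsive IAA probe sets had a median of 0.0016, with 4 positive and none called. The 5 GH3 probe sets had a median of 0.0059, with 4 positive and only WES1 called.

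GRX480 (At1g28480), a glutaredoxin that binds TGA factors and is induced by salicylic acid, was higher in fdh, reading 7.65, 6.91 and 6.33 against 5.10, 4.13 and 4.33 in bdg. The lowest fdh array stood above the highest bdg array. The difference was 2.45 (SE 0.377, adjusted p = 0.0299), and it was lost without any 1 of 6 arrays, with an adjusted p of up to 0.106 without fdh replicate 1. The other gene of the salicylic acid list, SAG101, a lipase-like partner of EDS1 in immunity, read 5.30, 4.05 and 4.17 in bdg and 6.05, 6.08 and 4.88 in fdh (1.16, adjusted p = 0.485), so that its groups overlapped through fdh replicate 3 and bdg replicate 1. FMO, a flavin monooxygenase by its annotation, was higher by 1.79 (adjusted p = 0.0211, up to 0.0973 without fdh replicate 1).

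HIS1-3 (At2g18050), a linker histone variant known to accumulate under water deficit, was higher in fdh. It read 3.08, 2.603 and 2.51 in bdg and 5.21, 5.27 and 6.52 in fdh. Here fdh replicate 3 was the highest array, unlike most of the large rises. The difference was 2.93 (SE 0.355, adjusted p = 0.0166), and the call was lost without bdg replicate 2 (adjusted p = 0.06) or 3 (0.054). Of the 6 histone H1 and H2B probe sets it was the only 1 that passed (median 0.0079). The dehydration, cold and abscisic acid list held 5 probe sets, all with a positive difference and a median of 1.07, and none passed. COR15A, a cold-induced chloroplast protein, read 7.78, 10.38 and 10.59 in bdg and 10.98, 11.14 and 12.44 in fdh (1.94, adjusted p = 0.58), with bdg replicate 1 far below the others.

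GAMMA-VPE, a vacuolar cysteine protease that takes part in cell death and senescence, read 7.53, 7.28 and 7.25 in bdg and 9.26, 9.07 and 9.09 in fdh. Its groups were tight and 1.79 apart (SE 0.218, adjusted p = 0.0166, up to 0.073 without fdh replicate 1). The other 3 vacuolar processing enzyme probe sets did not pass. PUB24, a U-box ubiquitin ligase that acts with PUB22 and PUB23 to restrain immune responses, was higher by 1.66 (adjusted p = 0.0239, up to 0.0814 without bdg replicate 3), with both means (2.53 in bdg and 4.20 in fdh) below the lowest array median. It was the only call among 9 U-box ligase probe sets. The ubiquitin ligase RING1 was higher by 1.48 (adjusted p = 0.0166, 0.073 without fdh replicate 1 and 0.06 without bdg replicate 2). ATG8D, a ubiquitin-like protein of the autophagosome membrane, was higher by 0.80 (adjusted p = 0.04, up to 0.176 without fdh replicate 1), and all 8 autophagy probe sets had a positive difference (median 0.55), though the others did not pass. These groups, like those of the aurora kinases, histones, sulfur, plastid, calmodulin-like, IAA and GH3 genes, were put together after called genes had been seen.

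In PUB22 and PUB23 fdh replicate 3 stood apart from its group. PUB23 read 5.56, 5.80 and 5.83 in bdg and 9.16, 9.37 and 7.18 in fdh (2.84, adjusted p = 0.0704, 0.0079 without fdh replicate 3). PUB22 read 4.15, 4.23 and 4.13 in bdg and 7.49, 7.53 and 3.49 in fdh (2.00, adjusted p = 0.527) and did not pass without fdh replicate 3 either (adjusted p = 0.0613). The third fdh array thus lay between the groups in the one gene and below all bdg arrays in the other. PUB23 passed with the replicate block (adjusted p = 0.04).

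In sulfur metabolism, APS4, an ATP sulfurylase that activates sulfate, read 4.28, 3.94 and 4.09 in bdg and 6.61, 5.86 and 5.85 in fdh. The difference was 2.00 (SE 0.235, adjusted p = 0.0166, 0.06 without bdg replicate 2 and 0.0514 without bdg replicate 3), and fdh also exceeded lcr (2.18, adjusted p = 0.0195). SUFE2, an activator of cysteine desulfurase in plastids, was higher by 0.90 (adjusted p = 0.0477) at levels of 2.18 to 3.49, all under the array medians, and lay just inside the threshold together with At4g30620 and At3g53990, and with the replicate block At4g30620 did not pass (adjusted p = 0.0658). Just outside it were At3g18250, At2g23950 and At4g38540, at adjusted p of 0.051 to 0.0519, and At4g38540 passed with the replicate block (adjusted p = 0.0199).

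The remaining large rises carried no symbol except AR781 (At2g26530), which read 5.28, 5.78 and 6.93 in bdg and 8.997, 9.01 and 8.33 in fdh (2.78, adjusted p = 0.0354). At3g48650 was higher by 4.37, At2g36220 by 3.87, At4g27654 by 3.79, At5g18470 by 3.42 and At3g16530 by 3.40 (adjusted p = 0.0268 to 0.0411). At5g10695, At5g39670, At1g26420, At1g13470 and At1g30820 were higher by 3.02 to 2.32 (adjusted p = 0.0178 to 0.0366). At4g27654 read 3.01, 3.12 and 3.08 in bdg and 7.64, 7.63 and 5.31 in fdh, with replicate 3 well below its group but above all bdg arrays, and with the replicate block it did not pass (adjusted p = 0.0503). These 11 calls were lost without any 1 of 5 to 10 arrays, with adjusted p of up to 0.176, in most cases without fdh replicate 1. Of the 15 largest rises 11 had a bdg mean below the lowest array median, and in 11 fdh replicate 3 was the fdh array nearest to bdg. At1g57630 gave a smaller but more even rise, from 5.14, 4.85 and 4.96 in bdg to 7.39, 7.16 and 6.98 in fdh (2.19, SE 0.157, adjusted p = 0.00115).

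**Figure D2:**
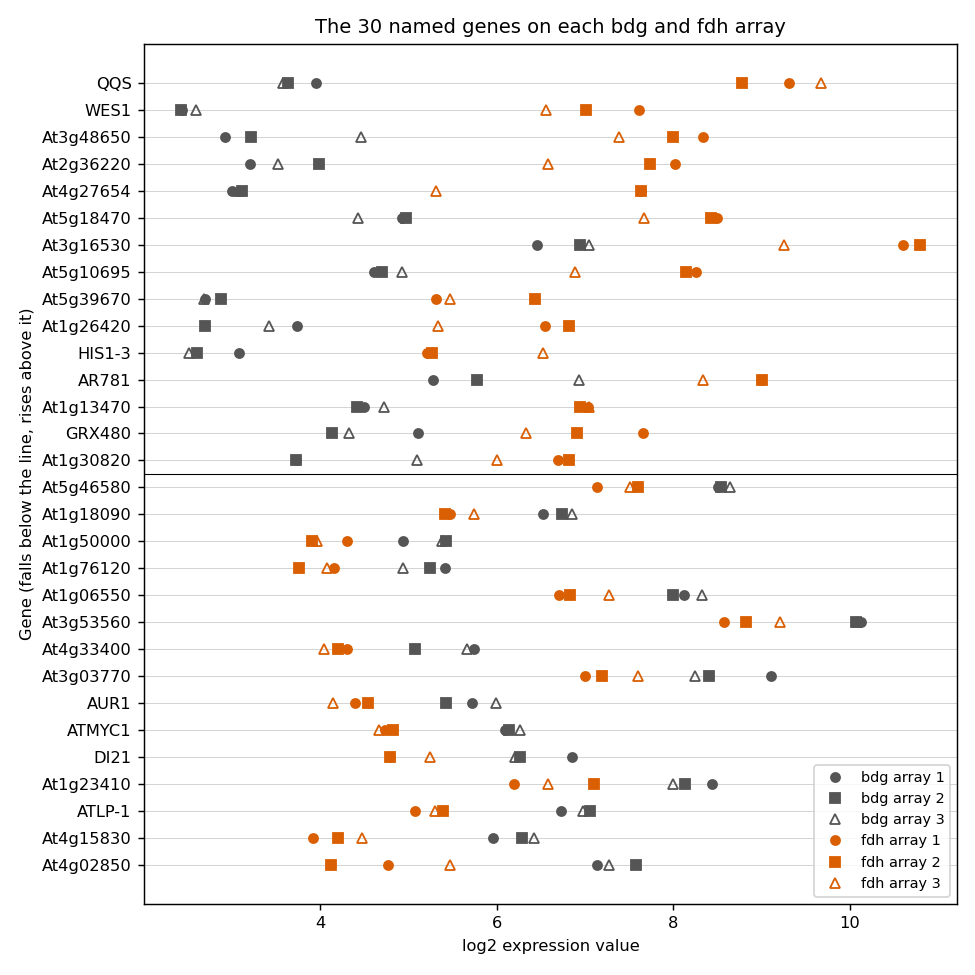
Log2 values of the 15 largest called rises and the 15 largest called falls on each of the 3 bdg and the 3 fdh arrays, with a marker for each array. No fdh array overlaps a bdg array, and fdh replicate 3 is nearest to bdg in 11 of the 15 rises and 7 of the 15 falls.

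Among the falls, ATMYC1 (At4g00480), a basic helix-loop-helix factor of trichome and root hair patterning, had the smallest adjusted p of any gene named here. It read 6.10, 6.14 and 6.27 in bdg and 4.74, 4.82 and 4.66 in fdh. The groups were tight and well apart, and the difference was -1.43 (SE 0.0793, adjusted p = 5.41e-04, no more than 0.00734 without any 1 array). Wild type (6.18 ± 0.056) and lcr (6.28 ± 0.144, SD, n = 3 each) lay with bdg, and fdh was lower than lcr by 1.54 (adjusted p = 2.84e-04).

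Both other trichome and epidermal patterning genes with a named probe set also had negative differences, so that the median of the 3 was -1.43, but neither passed. GIS, a zinc-finger factor that promotes trichome initiation, read 6.47, 6.97 and 5.60 in bdg and 5.203, 5.05 and 4.26 in fdh (-1.51, adjusted p = 0.2), and it passed with the replicate block (adjusted p = 0.0462). TRY, a small MYB that inhibits trichome fate in neighbouring cells, read 8.56, 8.35 and 6.97 in bdg and 6.84, 7.11 and 6.61 in fdh (-1.11, adjusted p = 0.424), with bdg replicate 3 inside the fdh range. The stomatal lineage factors SPCH and MUTE differed by -0.51 (adjusted p = 0.132) and -0.47 (adjusted p = 0.649).

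AUR1 (At4g32830), an aurora kinase that phosphorylates histone H3 in mitosis and was the only 1 of the 14 genes of the cell division list with a probe set named in the annotation, was lower in fdh. It read 5.72, 5.43 and 5.99 in bdg and 4.40, 4.54 and 4.14 in fdh (-1.35, SE 0.224, adjusted p = 0.0369). The call was lost without any 1 of 8 arrays, with an adjusted p of up to 0.147 without fdh replicate 1. Its relative AUR2 read 5.15, 5.16 and 4.85 against 3.47, 2.98 and 3.3, also without overlap, but did not pass (-1.80, adjusted p = 0.0948). In lcr AUR1 was intermediate (4.86 ± 0.397, SD, n = 3), and fdh and lcr did not differ by the test (-0.50, adjusted p = 0.647).

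ATLP-1 (At1g18250), a thaumatin-like protein, read 6.73, 7.06 and 6.97 in bdg and 5.07, 5.39 and 5.30 in fdh (-1.67, SE 0.205, adjusted p = 0.017, up to 0.073 without fdh replicate 1). DI21 (drought-induced 21) read 6.85, 6.26 and 6.20 against 4.79, 4.79 and 5.25 (-1.50, SE 0.259, adjusted p = 0.0421), and lost its call without any 1 of 10 arrays (up to 0.183 without fdh replicate 1). Both genes had clear gaps between the groups, and fdh was lower than lcr in ATLP-1 (-1.54, adjusted p = 0.0451).

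UPP, the uracil phosphoribosyltransferase of pyrimidine salvage, read 9.34, 9.10 and 9.26 in bdg and 8.15, 8.23 and 8.501 in fdh (-0.94, SE 0.0966, adjusted p = 0.00863, no more than 0.0354 without any 1 array). HCF101, which carries iron-sulfur clusters to photosystem I, read 10.25, 9.82 and 9.88 against 9.35, 9.21 and 9.23 (-0.72, adjusted p = 0.0294, 0.102 without fdh replicate 2). It was the only call among 18 probe sets of photosystem and plastid RNA assembly factors, whose median was -0.27 and of which 4 had a positive difference. The 69 probe sets of plastid-encoded genes had a median of -0.35 with 16 positive, and none passed. Their median level varied within genotypes by as much, from 11.29 to 12.09 over the bdg arrays and from 10.95 to 11.82 over the fdh arrays.

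At4g02850 showed the largest called fall of a single-gene probe set, from 7.13, 7.57 and 7.27 in bdg to 4.76, 4.12 and 5.47 in fdh (-2.54, SE 0.334, adjusted p = 0.0211, up to 0.0926 without fdh replicate 1). The uncalled fall of At2g27420 was larger (-2.74, adjusted p = 0.565), and its arrays overlapped. At4g15830 fell by 2.03 and At1g23410 by 1.56 (adjusted p = 0.0237 and 0.0228). The 8 other genes of the 15 largest falls, At3g03770, At4g33400, At3g53560, At1g06550, At1g76120, At1g50000, At1g18090 and At5g46580, differed by -1.32 to -1.15 (adjusted p = 0.0166 to 0.0474). These 10 calls were lost without any 1 of 2 to 10 arrays, with adjusted p of up to 0.207 (At3g03770, without fdh replicate 1). With the replicate block At3g03770 did not pass (adjusted p = 0.0562). Among probe sets with no gene in the annotation, 1 fell the most of all probe sets, from 9.82, 10.38 and 9.58 in bdg to 6.29, 5.94 and 6.24 in fdh (-3.77, adjusted p = 0.00115). Wild type (9.51 ± 0.466) and lcr (9.76 ± 0.285, SD, n = 3 each) lay with bdg. There fdh was lower than wild type (-3.35, adjusted p = 0.00142) and lcr (-3.60, adjusted p = 0.00423). The largest rise of a probe set with no gene went from 4.46, 5.09 and 6.15 to 10.03, 9.70 and 10.39 (4.81, adjusted p = 0.00526). In that probe set lcr (10.18 ± 0.345) was level with fdh and wild type (8.10 ± 0.551, SD, n = 3 each) lay between, and neither fdh nor bdg passed against wild type (1.94, adjusted p = 0.0614, and -2.87, adjusted p = 0.0688).

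Wild type and lcr arrays, which did not enter the differences, show where the compared levels lay. The wild type mean was nearer to bdg than to fdh in 111 of the 114 rises and 53 of the 59 falls, and the lcr mean was nearer to bdg in 91 and 52. Against wild type, 493 probe sets were called in fdh (2.17%) and 25 in bdg (0.11%), and against lcr 20 were called in fdh (0.0879%). Of the 30 largest named differences 25 were called the same way in fdh against wild type, none in bdg against wild type, and 4 in fdh against lcr (QQS, HIS1-3, ATLP-1 and ATMYC1). These comparisons share the fdh or bdg arrays with the direct one. A gene could also be far from wild type in both mutants and differ little between them, as did the lipid transfer protein gene At5g01870, named after its values were seen. It was at 2.31 ± 0.503 in wild type, 8.58 ± 0.366 in bdg and 7.92 ± 0.457 in fdh (SD, n = 3 each), with a direct difference of -0.66 (adjusted p = 0.503).

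**Figure D3:**
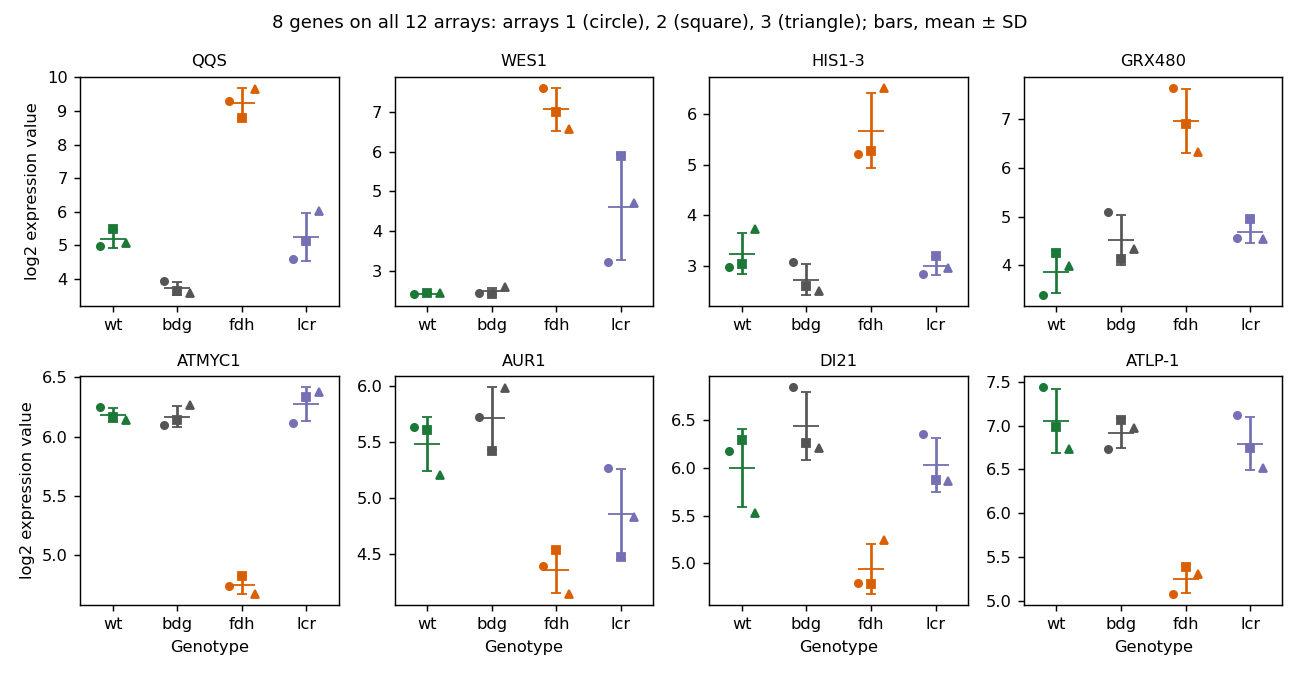
Log2 values of QQS, WES1, HIS1-3, GRX480, ATMYC1, AUR1, DI21 and ATLP-1 on all 12 arrays, by genotype (x axis), 1 point per array. The fdh arrays stand apart from bdg in each gene, wild type lies near bdg in most, and QQS, WES1 and AUR1 are intermediate in lcr.

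How many probe sets passed depended strongly on which arrays were used. Leaving out fdh replicate 3 raised the number to 578 (390 higher and 188 lower), of which 162 were among the 173. Leaving out fdh replicate 1 or 2 gave totals of 27 and 56, of which 25 and 43 were among the 173. Leaving out bdg replicate 1, 2 or 3 gave 31, 27 and 32, of which 26, 21 and 24 were among the 173. Wild type replicate 1 and lcr replicate 3 enter only the estimate of the spread. Without them 109 and 118 were called, of which 97 and 106 were among the 173. Of the 30 largest named calls, those lost numbered 25 to 27 without a bdg array, with adjusted p of 0.0514 to 0.12, 26 without fdh replicate 1 (0.0566 to 0.207) and 21 without fdh replicate 2 (0.0531 to 0.159). None was lost without fdh replicate 3. Between 8 and 10 were lost without wild type replicate 1 or 2 or lcr replicate 1 or 3, and 3 and 2 without wild type replicate 3 and lcr replicate 2 (0.0502 to 0.0737 over these 6 arrays). QQS and ATMYC1 were the only 2 of the 30 called throughout.

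**Figure D4:**
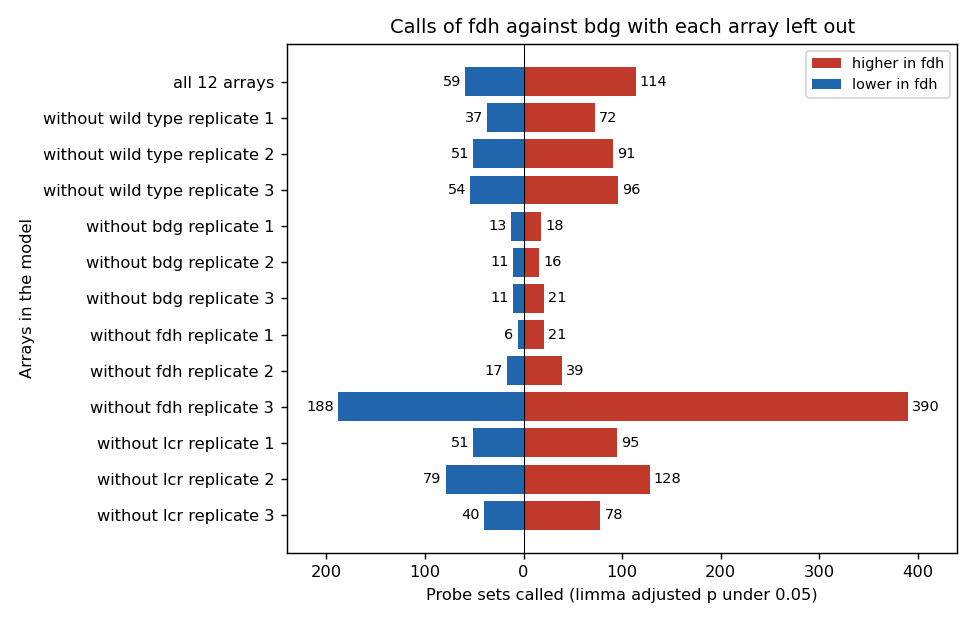
Number of probe sets called by limma (x axis) with all arrays and with each of the 12 left out in turn (y axis), the bars running from 0 to the right for those higher in fdh and to the left for those lower. The number is 173 with all arrays, 578 without fdh replicate 3 and 27 to 56 without any of the other fdh or bdg arrays.

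The third fdh array stood nearest to bdg in many large differences that did not pass. There were 188 probe sets higher by at least 2 on the log2 scale and not called, and in 152 of them fdh replicate 3 was the fdh array nearest to bdg; 62 of the 188 were called without it. Among the 39 called rises of that size it was nearest in 25. The 188 were selected as large differences that did not pass, which favours a wide spread between arrays, so their counts describe that group only. The corresponding falls were fewer, with 3 called and 10 not called. Genes named from this group after their values were seen included regulators of stress responses and calcium signalling. STZ, a zinc-finger repressor induced by salt and wounding, read 5.50, 7.56 and 7.70 in bdg and 11.53, 11.60 and 9.93 in fdh (4.101, adjusted p = 0.0895, 0.0645 without fdh replicate 3). CML37, a calmodulin-like protein, read 3.03, 3.65 and 2.56 against 6.07, 6.29 and 4.24 (2.45, adjusted p = 0.0784, 0.0082 without it, and 0.0311 with the replicate block). Each had its lowest fdh value on replicate 3. CML38 differed by 3.07 (adjusted p = 0.126), and the 7 calmodulin-like probe sets had a median of 1.18 with none called. MSRB9, a methionine sulfoxide reductase, differed by 3.39 (adjusted p = 0.0742, 0.0272 without fdh replicate 3).

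The gene lists for cuticle, defence and stress were covered only in part, since 8730 probe sets had no gene in the annotation used. A probe set was named for 2 of 32 wax genes, 5 of 25 cutin genes and 2 of 26 salicylic acid genes, and the remaining genes of these lists were not analysed here. Of 40 lists 31 had a named probe set and 5 a called one, namely auxin (WES1), starch (QQS), salicylic acid (GRX480), trichome patterning (ATMYC1) and cell division (AUR1), each with 1. For comparison, of all 13513 single-gene probe sets 0.718% were called and 7296 had a positive difference, and their median difference was 0.0019. For the cuticle, neither wax probe set passed, with At4g13840 at 0.35 (adjusted p = 0.695) and the wax ester synthase WSD1 at -0.61 (adjusted p = 0.825). The 5 cutin probe sets had a median of 0.12, and SHN3, an activator of cuticle genes, read 3.65, 4.25 and 4.47 in bdg and 5.36, 5.83 and 4.99 in fdh (1.27, adjusted p = 0.362) without overlap. The 11 lipid transfer protein probe sets had a median of 0.14 with none called. DEWAX (At5g61590), a repressor of wax genes named after its values were seen, read 5.30, 5.60 and 7.55 in bdg and 9.31, 9.32 and 7.79 in fdh (2.65, adjusted p = 0.189), so the third arrays of the groups nearly met.

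In the larger families no probe set passed among 47 UDP-glycosyltransferases (median 0.010), 26 cytochrome P450s (0.0077) or 13 glutathione transferases (0.0031). The P450 gene CYP71B23 came nearest (2.34, adjusted p = 0.0712), followed by the lignin-related glucosyltransferase gene UGT72E1, reading 4.13, 3.98 and 5.97 in bdg and 7.86, 7.68 and 8.13 in fdh (3.19, adjusted p = 0.0725), and it passed with the replicate block (adjusted p = 0.0255). The 6 WRKY factors had differences of 0.0019 to 2.35, all positive (median 1.02). WRKY22, a regulator of immune responses, read 3.14, 3.01 and 2.99 in bdg and 6.30, 6.64 and 3.26 in fdh, where replicate 3 was almost at the bdg level (2.35, adjusted p = 0.31, 0.0451 without that array). The 8 jasmonate probe sets had a median of 0.37 and the 4 glucosinolate ones 0.49, with none called. Among 4 iron and copper probe sets the median was -0.83, and PYE, a regulator of iron homeostasis, read 7.47, 7.32 and 3.69 in bdg and 4.82, 4.94 and 3.71 in fdh (-1.67, adjusted p = 0.747), the third arrays of both groups being alike. The 5 photosynthesis probe sets had a median of 0.13, and 10 expansins 0.025, with none called.

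**Figure D5:**
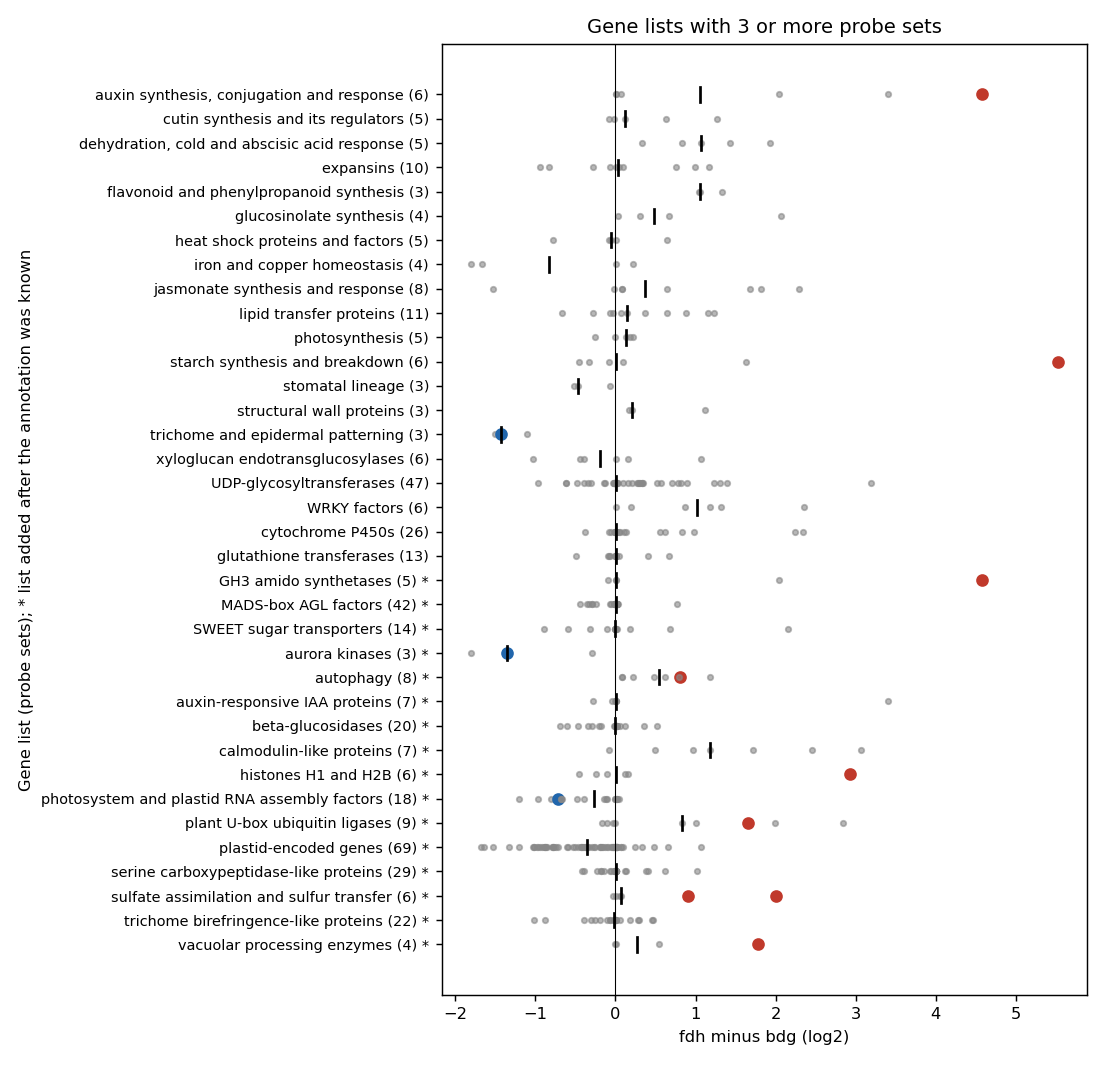
Fdh minus bdg differences in log2 units (x axis) of the probe sets of each gene list with at least 3 of them (y axis, an asterisk marking lists added later), with a tick at each list median and called probe sets as large coloured points. QQS at 5.53 and WES1 at 4.58 lie far to the right of their list medians, and ATMYC1 lies at the median of its list.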

How the data were processed

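Young rosette leaves of wild type, bdg, fdh and lcr plants (3 arrays each) were profiled on Affymetrix ATH1 arrays. The authors background-corrected and normalised the probe signals with GCRMA, of a version that no source read here states, and deposited log2 values for 22810 probe sets, which shrink low values together and keep no depth, so that the number of arrays limits the precision. The 64 control probe sets were left out and no filter on level was applied.

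All 12 arrays were fitted as 4 group means with limma 3.58.1 in R 4.3.3 (8 residual degrees of freedom), and fdh minus bdg was tested with two-sided moderated statistics and Benjamini-Hochberg adjustment over 22746 probe sets, called at an adjusted p under 0.05. The methods state a Rank Product test for mutants against wild type and none between mutants, and Rank Product was run as an alternative. The fits were tested on simulated data. Each sample is a pool of 15 plants harvested separately, so p-values measure the spread between pools. A harvest round held 1 sample of each genotype, but the labels do not tie replicate numbers to rounds. Deviations of equally numbered bdg and fdh samples from their group means correlated at 0.113, 0.294 and 0.367, all above 0.1. Unequal numbers of bdg and fdh gave -0.339 to 0.246, and bdg 2 with fdh 1 (0.246) exceeded the value of number 1. The pairing was thus not clear for number 1. The numbers were still taken to pair these samples, and a fit of all 12 arrays with the number as a block was run. Over the other genotype pairs equally numbered samples correlated at -0.356 to 0.725, with wild type and bdg at -0.222 and -0.356 for numbers 1 and 2, while unequal numbers reached 0.740 (wild type 2 with bdg 1), so the pairing did not hold for every genotype. Samples numbered 3 correlated positively in every pair of genotypes, at 0.367 to 0.725.

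Of the probe sets 13513 had a single gene in the platform annotation, 503 several and 8730 none, and 13436 of the first matched a RefSeq locus. Named by rule were the 15 largest called rises and falls with 1 gene, up to 4 called members of each list, up to 2 members of lists with none, and a few genes the study names. The members and lists were chosen with earlier results of these data known. CER1, CER3, CER4, DAISY and PAD3 were not analysed here. Alternatives covered the arrays in the fit, a level filter, quantile normalisation, median centring, the block, a variance trend, array weights, 3′ to 5′ covariates, Rank Product, a minimum difference and leaving out arrays. Figures were drawn with matplotlib 3.10.9.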

Additional observations from a re-analysis of the deposited data

How the results depend on the processing

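With all arrays 173 probe sets were called, 114 higher and 59 lower. No called probe set changed direction under any alternative, but most alternatives could not change it. The fdh and bdg arrays did not overlap in any of these probe sets, so leaving out arrays could not reverse a difference. The 6-array fit, the block, the variance trend, Rank Product and the minimum difference kept the same mean difference. Quantile normalisation, median centring and the 3′ to 5′ covariates could have reversed it. The totals (higher, lower) were 16 (14, 2) with only the 6 fdh and bdg arrays in the model, 334 (240, 94) with only the probe sets that exceeded 5 on 3 or more of these arrays, 192 (111, 81) after a second quantile normalisation, 231 (114, 117) with arrays centred on their medians, 336 (221, 115) with the replicate block, and 157 (119, 38) with a variance trend. They were 1395 (748, 647) with array weights, 381 (198, 183) with the GAPDH and 96 (64, 32) with the actin 3′ to 5′ difference as a covariate, 57 (26, 31) without wild type replicate 2 and bdg replicate 1, 371 (309, 62) by Rank Product, and 122 (91, 31) with a difference of at least 1. Leaving out 1 array gave 27 to 578 (16 to 390 higher, 6 to 188 lower). Added after seeing the data were the block with only the 6 arrays, with 0 (0, 0) called by limma although 3479 had an unadjusted p under 0.05, and the model without the 4 arrays numbered 3, with 247 (183, 64). Of the 173, 147 were called with the block, 15 with 6 arrays and 65 by Rank Product. The cause of these differences was not tested.

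Of the named genes only 6 that had not passed changed sign, each to a value near 0. EXPA18 was at -0.0019 after quantile normalisation, -0.0701 centred, -0.0056 with array weights and -0.0052 without the arrays numbered 3, and between -0.0071 and 0.0067 with 1 array left out. SAG29 was at -0.00015, -0.0704, -0.0061 and -0.0079 under the same settings, and between -0.0093 and 0.0068 with 1 array left out. EXPA7 was at 0.0044 with the GAPDH and 0.0032 with the actin covariate, 0.0055 without wild type replicate 2 and bdg replicate 1, and -0.0125 to 0.0055 with 1 array left out. GSTU25 was at 0.013, 0.0021 and 0.015 under those settings and -0.027 to 0.0145 with 1 array left out. GSTU20, at 0.668 in the main fit, was at -0.092 with the GAPDH covariate and between 0.0453 and 1.017 with 1 array left out. At4g21620, at 0.202 in the main fit, was at -0.0668 without bdg replicate 3, within -0.0668 to 0.467 with 1 array left out. Of the genes named in the text, the block ended the calls of At4g27654, At3g03770 and At4g30620, and added those of UGT72E1, GIS, PUB23, CML37 and At4g38540. It kept 28 of the 30 largest, as did the level filter. Quantile normalisation and the GAPDH covariate each kept 29, and median centring, the variance trend and array weights kept all 30. The actin covariate kept 18 and Rank Product 20. Leaving out the arrays numbered 3 kept 12, and leaving out wild type replicate 2 with bdg replicate 1 kept 4. The fit of only the 6 fdh and bdg arrays kept 4, and with the block 0.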
